A study of Mus musculus with 45 samples.

Results

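Transcripts with an annotated length of 30 to 60 kb are described here, from a measurement of how far RNA polymerase II had travelled along each gene in mouse embryonic stem cells. Membership used length alone. A transcript belonged when its end minus its start was at least 30000 bases and under 60000 bases, which held for 11913 of the 122968 transcripts in the deposited tables, or 9.69%. The shortest member was 30000 bases long and the longest 59995 bases, and the nearest transcripts outside the class were 29998 and 60001 bases long. Members came from 5922 genes, of which 2807 had more than 1 member, and they began at 10997 distinct positions. Transcripts of 1 gene that share a start are therefore not independent measurements. GENCODE M21 lists 11880 members, 11186 of them with identical start and end, and 7834 members were protein coding transcripts.

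The cells were held for 4 h in DRB, a kinase inhibitor that keeps polymerases from leaving the start region, and the drug was then washed out so that a wave of polymerases entered each gene at the same time. New RNA was labelled with 4-thiouridine, purified and sequenced, and the boundary deposited for a transcript is the distance in bases from its start to the end of that wave. The comparison asks how this distance depends on Polr2a, the gene of the catalytic subunit, in 3 genotypes: WT/WT, with wild-type alleles, WT/slow, with the R749H change on 1 allele, and slow/slow, with R749H on both alleles. Samples were taken 5, 15 and 30 min after the wash, 3 for each genotype at each time, 27 in all, and each sample had been set against the average of samples taken at 0 min. The 0 min samples and those never given DRB, 18 of the 45 samples of the series, have no boundaries of their own. All groups shared the DRB block, 2i medium and gelatin without feeder cells. The R749H alleles were made by gene targeting, WT/slow from the parental WT/WT line and slow/slow from the WT/slow line, so genotype and cell line cannot be told apart. The tables hold distances and no read counts, so the depth behind each boundary is unknown. With 3 samples against 3, the smallest p that an exact permutation test can give is 0.1.

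A boundary carries no expression level, so the cell type could be checked only by counting samples with a boundary for any transcript of a marker gene. Of 10 embryonic stem cell markers, Esrrb, Tfcp2l1 and Tdgf1 had a boundary in 27 of 27 samples, Lin28a in 26, Zfp42 in 24, Dppa4 in 22, Klf4 in 20 and Nanog in 9. Pou5f1 and Sox2, which define the cell type, had a boundary in 0 samples, and their longest transcripts measure 4.755 and 2.057 kb. Of 16 markers of fibroblasts and differentiated cells, Col1a1, Col1a2, Col3a1, Sox17, Cdx2, Sox1 and Afp had a boundary in 0 samples. Pdgfra, Pdgfrb and Gata6 had one in 27 samples, Gata4 and Pax6 in 26, Eomes in 19, Tubb3 in 17, Thy1 in 12 and T in 6. Genes of both sets thus had boundaries in most samples, in few or in none. What share of the cells transcribed these genes was not tested.

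RNA polymerase II starts at the promoter, pauses a short way into the gene, and is released by a kinase that DRB inhibits. After release it elongates through exons and long introns at a speed that differs between genes and along a gene, and splicing and processing of the RNA go on while it moves. A substitution in its catalytic subunit that slows elongation makes it possible to ask where the wave stands at a given time when the enzyme itself is changed.

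The sequences under some mean wave ends are printed to place those means in the gene. The wave end of a single replicate could lie kilobases from the mean. The printed bases therefore need not be where the wave ended in any replicate, and a front in this paragraph is the mean. Each line gives the 100 bases of the sense strand, 5′ to 3′, that end at the mean front of 3 replicates at 15 min, and the capitals mark the last 10 bases before that front. Scai, a repressor of MRTF and SRF transcription, and Taf2, a subunit of the general transcription factor TFIID, had fronts nearer the start in slow/slow cells. So did A230072E10Rik, an antisense transcript on the X chromosome. Slc43a2, an amino acid transporter, had a front farther from the start in slow/slow cells. In Scai (minus strand, GRCm38/mm10) the WT/WT front was in intron 2 at chr2:39145429-39145528 and the slow/slow front in the same intron at chr2:39160829-39160928. Taf2, also on the minus strand, had its WT/WT front in intron 24 at chr15:55026753-55026852 and its slow/slow front in intron 16 at chr15:55043953-55044052. A230072E10Rik, again on the minus strand, had its fronts in intron 3 at chrX:151309847-151309946 and in intron 2 at chrX:151329747-151329846. For Slc43a2, on the plus strand, they lay in intron 2 at chr11:75540798-75540897 and in intron 6 at chr11:75561098-75561197. The genome sequence is RefSeq GRCm38.p6.
Scai WT/WT front: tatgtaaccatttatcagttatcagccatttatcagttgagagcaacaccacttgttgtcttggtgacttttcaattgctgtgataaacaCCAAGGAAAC
Scai slow/slow front: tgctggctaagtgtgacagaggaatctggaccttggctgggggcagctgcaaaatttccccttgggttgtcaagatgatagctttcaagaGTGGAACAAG
Taf2 WT/WT front: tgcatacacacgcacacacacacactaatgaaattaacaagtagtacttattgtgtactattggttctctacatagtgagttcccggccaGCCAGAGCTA
Taf2 slow/slow front: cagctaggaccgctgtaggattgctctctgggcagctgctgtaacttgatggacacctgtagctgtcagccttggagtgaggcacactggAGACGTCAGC
A230072E10Rik WT/WT front: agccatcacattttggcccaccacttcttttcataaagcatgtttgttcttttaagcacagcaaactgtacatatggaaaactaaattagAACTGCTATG
A230072E10Rik slow/slow front: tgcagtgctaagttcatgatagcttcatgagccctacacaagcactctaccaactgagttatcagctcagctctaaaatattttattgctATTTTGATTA
Slc43a2 WT/WT front: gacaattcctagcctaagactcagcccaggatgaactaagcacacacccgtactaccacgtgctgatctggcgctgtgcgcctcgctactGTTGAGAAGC
Slc43a2 slow/slow front: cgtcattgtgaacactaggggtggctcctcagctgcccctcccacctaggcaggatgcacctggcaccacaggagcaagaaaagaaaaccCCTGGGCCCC

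Boundaries were found for most members in most samples. Of the 11913 members, 6741 had a boundary in all 27 samples, or 56.6%, and these belonged to 3390 genes. A further 4097 had one in some samples and 1075 in none. The sample with the fewest members called was slow/slow 30 min replicate 2, with 8699 or 73.0%, and the sample with the most was WT/WT 5 min replicate 2, with 10479 or 88.0%. In every other sample the share lay between these. The members with a boundary in all 27 samples carry the shares at 2500 bases, the shares by distance and the medians over all boundaries. The median above 2500 bases was instead taken over every member above that value in the sample. That was 2174 members in slow/slow 30 min replicate 2 and 8616 in WT/WT 5 min replicate 2.

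Boundaries came in steps of 100 bases, and a single value stood out. Of 273129 boundaries, 44.6% equalled 2500 bases exactly, and the next commonest value, 2.6 kb, made up 0.587%. Nothing in the tables says whether 2500 bases marks a wave front at that distance or a default of the software, and which of these it was could not be tested. For that reason the share of boundaries at 2500 bases and the median of the boundaries above 2500 bases are given apart from each other. The longest boundary was 57.3 kb, and 0 boundaries were longer than their transcript.

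At 15 min slow/slow cells stood apart from WT/WT cells in how often a member was at 2500 bases. The share was 55.0, 67.0 and 48.1% in the WT/WT replicates, 49.9, 43.4 and 43.6% in the WT/slow replicates, and 38.3, 30.3 and 25.04% in the slow/slow replicates. Every slow/slow sample was below every WT/WT sample, and WT/slow lay between them with overlap on the WT/WT side. As means the share was 56.7 ± 9.57% in WT/WT, 45.7 ± 3.71% in WT/slow and 31.2 ± 6.67% in slow/slow cells (SD, n = 3). The slow/slow difference was -25.5 percent points (exact permutation p = 0.1, n = 3 a group), the smallest p this design allows, and the WT/slow difference was -11.0 (exact permutation p = 0.2, n = 3 a group), or -5.86 without WT/WT 15 min replicate 2.

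Earlier and later the genotypes overlapped. At 5 min the share at 2500 bases was 22.7, 13.4 and 16.7% in WT/WT, 24.8, 15.2 and 19.4% in WT/slow and 14.4, 16.2 and 17.7% in slow/slow samples. The WT/WT replicates covered the whole slow/slow range, and the WT/slow replicates overlapped it. The slow/slow difference of -1.55 points (exact permutation p = 0.8, n = 3 a group) was 1.00 without WT/WT 5 min replicate 1. The WT/slow difference was 2.18 points (exact permutation p = 0.6, n = 3 a group) and -0.334 without WT/slow 5 min replicate 1. Within each replicate number, however, the WT/slow share was above that of WT/WT at 5 min, in 3 of 3. By 30 min most members were at 2500 bases in every genotype: 57.8, 73.9 and 78.2% in WT/WT, 66.6, 79.2 and 79.4% in WT/slow, and 70.8, 73.2 and 72.9% in slow/slow samples. WT/WT 30 min replicate 1 was the lowest of the 9. Slow/slow differed by 2.33 points (exact permutation p = 1, n = 3 a group), or -3.75 without that sample, and WT/slow by 5.05 (exact permutation p = 0.5, n = 3 a group), or -1.03 without it. The WT/slow share was again the higher in 3 of 3 replicate numbers.

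**Figure D1:**
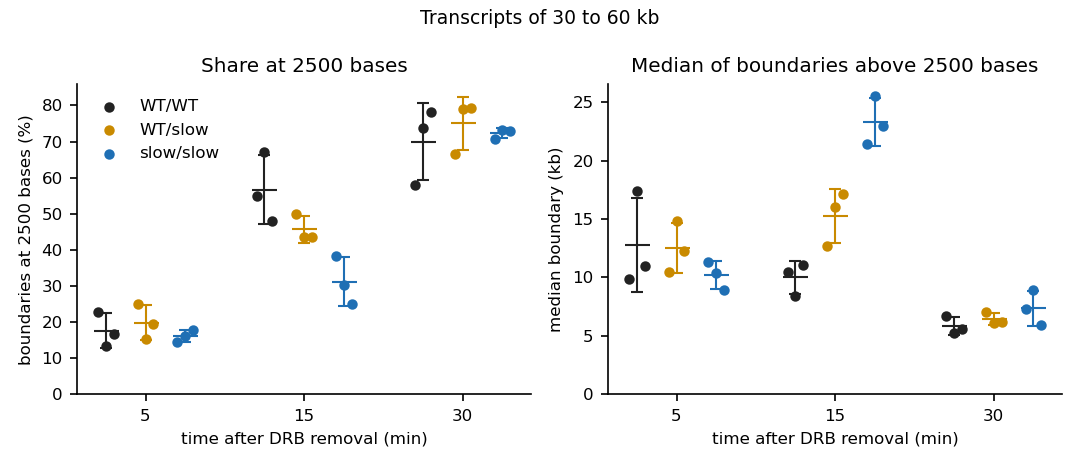
Share of boundaries at 2500 bases (left, %) and median of the boundaries above 2500 bases (right, kb) against time after DRB removal (min). The share is over the 6741 members called in all 27 samples, the median over every member above 2500 bases in the sample. Points are samples, long bars means and error bars SD of 3 replicates. At 15 min the slow/slow samples have the lowest shares and the highest medians.

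Among the boundaries above 2500 bases, the median at 15 min lay farthest into the gene in slow/slow cells. The median of those boundaries was 10.5, 8.4 and 11.1 kb in WT/WT, 12.7, 16 and 17.1 in WT/slow and 21.4, 25.5 and 23.0 kb in slow/slow samples. The 3 genotypes did not overlap, in the order WT/WT, WT/slow, slow/slow. Mean values were 10 ± 1.42, 15.3 ± 2.29 and 23.3 ± 2.07 kb (SD, n = 3). The difference from WT/WT was 13.3 kb for slow/slow and 5.27 kb for WT/slow (exact permutation p = 0.1 for each, n = 3 a group). As a share of the transcript's length the same median was 23.8 ± 2.94% in WT/WT, 36.4 ± 5.26% in WT/slow and 51.6 ± 4.07% in slow/slow cells. The transcripts above 2500 bases were not the same in every sample, so these medians do not follow a fixed set of genes. Their order did not hold at the far end. Past 40 kb lay 2.52 ± 0.742% of members in WT/WT, 3.22 ± 1.78% in WT/slow and 1.09 ± 0.159% in slow/slow cells (SD, n = 3). The authors report the reverse direction of these medians, with wave fronts that on average reached less far in slow/slow than in wild-type cells. Their fronts are genome-wide, over genes common to the genotypes and not limited to this length class. The medians here cover a changing set of members, and no boundary was longer than its transcript. The 2 measures are therefore unlike, and why their directions differ was not tested.

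At 5 min the order of the means was the reverse, with overlap. The median above 2500 bases was 9.9, 17.4 and 11.0 kb in WT/WT, 10.5, 14.8 and 12.3 in WT/slow and 11.3, 10.4 and 8.9 kb in slow/slow samples. WT/WT 5 min replicate 2 was the highest of the 9, and the other WT/WT samples lay within the slow/slow range. The slow/slow mean of 10.2 ± 1.21 kb was below the WT/WT mean of 12.8 ± 4.05 kb by less than the WT/WT spread (difference -2.57 kb, exact permutation p = 0.5, n = 3 a group), and by -0.25 kb without WT/WT 5 min replicate 2. For WT/slow the mean was 12.5 ± 2.16 kb (difference -0.233 kb, exact permutation p = 0.9, n = 3 a group), and the difference was 2.08 kb without WT/WT 5 min replicate 2 and 0.783 kb without WT/slow 5 min replicate 1. Its direction thus turned on single libraries. At 30 min the medians were 5.83 ± 0.777, 6.43 ± 0.493 and 7.37 ± 1.501 kb in the order WT/WT, WT/slow, slow/slow, with overlap (exact permutation p = 0.4 for WT/slow and 0.2 for slow/slow, n = 3 a group). Within replicate numbers the WT/slow median at 30 min was above that of WT/WT in 3 of 3.

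With the boundaries at 2500 bases counted in, the median lay nearer the start at 15 than at 5 min in WT/WT and WT/slow cells. At 5 min the median over all boundaries was 7.6, 16.6 and 9.7 kb in WT/WT, 8.0, 13.8 and 10.5 in WT/slow and 10.5, 9.7 and 8.0 kb in slow/slow samples. By 15 min it was 2.5, 2.5 and 2.7 kb in WT/WT, 2.5, 3.8 and 3.9 in WT/slow, and 5.6, 16.7 and 18.6 kb in slow/slow samples. Every slow/slow sample at 15 min was above every sample of the other genotypes, and its lowest, replicate 1, stood well apart from its other replicates. At 30 min the median was 2.5 kb in each of the 9 samples. For slow/slow the difference at 15 min was 11.1 kb (exact permutation p = 0.1, n = 3 a group) and that of WT/slow 0.833 kb (exact permutation p = 0.4, n = 3 a group), or 1.28 kb without WT/slow 15 min replicate 1. At 5 min the slow/slow difference was -1.9 kb (exact permutation p = 0.9, n = 3 a group), and it was 0.75 kb without WT/WT 5 min replicate 2.

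Progress, the 15 min mean minus the 5 min mean, was compared between genotypes by exchanging genotype labels within each time (400 arrangements, smallest p 0.005). Leaving out a library leaves fewer arrangements, so a p value without it is on another scale than that with all samples. For the median above 2500 bases, progress was -2.77 kb in WT/WT, 2.73 kb in WT/slow and 13.1 kb in slow/slow cells. The slow/slow median above 2500 bases thus lay farther out at 15 min than at 5 min, while that of WT/WT did not. The slow/slow minus WT/WT difference in progress was 15.9 kb (exact permutation p = 0.025, 12 samples), and without WT/WT 5 min replicate 2 it was 13.55 kb (exact permutation p = 0.05), no longer under the threshold of 0.05. For WT/slow the difference was 5.5 kb (exact permutation p = 0.135), and 3.18 kb without WT/WT 5 min replicate 2.

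The median over all boundaries gave progress of -8.73 kb in WT/WT, -7.37 kb in WT/slow and 4.23 kb in slow/slow cells. A slow/slow difference of 13.0 kb did not pass (exact permutation p = 0.055); it passed without WT/WT 5 min replicate 1 (14.8 kb, exact permutation p = 0.015) and without slow/slow 15 min replicates 1, 2 or 3 (17.0, 11.4 and 10.5 kb, exact permutation p = 0.045 each). The WT/slow difference was 1.37 kb (exact permutation p = 0.63) and was -1.28 kb without WT/WT 5 min replicate 2 and -0.0167 kb without WT/slow 5 min replicate 1. Whether this median passed thus depended on single libraries. The share at 2500 bases gained 39.1 points from 5 to 15 min in WT/WT, 25.9 in WT/slow and 15.1 in slow/slow cells. Those gains differed from WT/WT by -23.9 points in slow/slow (exact permutation p = 0.065) and by -13.2 in WT/slow (exact permutation p = 0.095). The slow/slow value passed without WT/WT 5 min replicate 1 (-26.5, exact permutation p = 0.03). That of WT/slow passed without WT/WT 5 min replicate 1 and without WT/slow 5 min replicate 2 (-15.7 and -15.5, exact permutation p = 0.045 and 0.04), and was -8.04 without WT/WT 15 min replicate 2 (exact permutation p = 0.17). From 15 to 30 min the gains ran the other way: 13.3 points in WT/WT, 29.4 in WT/slow and 41.1 in slow/slow cells, with a slow/slow difference of 27.8 (exact permutation p = 0.05), or 29.8 and 31.9 without WT/WT 30 min replicates 2 and 3 (exact permutation p = 0.035 and 0.02). The slow/slow share at 2500 bases thus rose more in the later interval, but neither interval's difference was under 0.05 with all samples.

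The spread of the boundaries shows the slow/slow front as a peak at 15 min. Between 25 and 30 kb lay 14.0 ± 4.63% of members in slow/slow cells, 6.76 ± 1.12% in WT/slow and 2.65 ± 1.09% in WT/WT cells. From 30 to 35 kb the shares were 15.003 ± 3.64, 4.94 ± 1.14 and 2.42 ± 0.999% in the same order (SD, n = 3). WT/WT cells had no such peak: their boundaries above 2500 bases became fewer at each step, from 7.99 ± 1.60% between 5 and 10 kb to 1.81 ± 0.677% between 35 and 40 kb.

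Boundaries above 20 and up to 40 kb at 15 min made up 10.8, 6.26 and 13.4% in WT/WT, 16.1, 23.0 and 22.5% in WT/slow and 34.1, 45.6 and 46.6% in slow/slow samples. The 3 genotypes did not overlap. The slow/slow mean of 42.1 ± 6.93% was 32.0 points above the WT/WT mean of 10.1 ± 3.61% (exact permutation p = 0.1, n = 3 a group), and the WT/slow mean was 20.5 ± 3.85% (exact permutation p = 0.1, n = 3 a group). Past 40 kb the order turned. There the share was 2.91, 1.66 and 2.98% in WT/WT, 1.69, 2.80 and 5.18% in WT/slow and 1.23, 1.13 and 0.920% in slow/slow samples, so every slow/slow sample was below every sample of the other genotypes. The slow/slow difference was -1.42 points (exact permutation p = 0.1, n = 3 a group), and WT/slow overlapped WT/WT (0.707 points, exact permutation p = 0.8, n = 3 a group; -0.269 without WT/slow 15 min replicate 3). Already at 5 min fewer slow/slow members were past 20 kb: 5.87, 3.37 and 5.99% between 20 and 40 kb, against 8.71, 27.6 and 8.43% in WT/WT samples. Those groups did not overlap (difference -9.84 points, exact permutation p = 0.1, n = 3 a group), and most of the WT/WT mean came from replicate 2, without which the difference was -3.49 points.

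**Figure D2:**
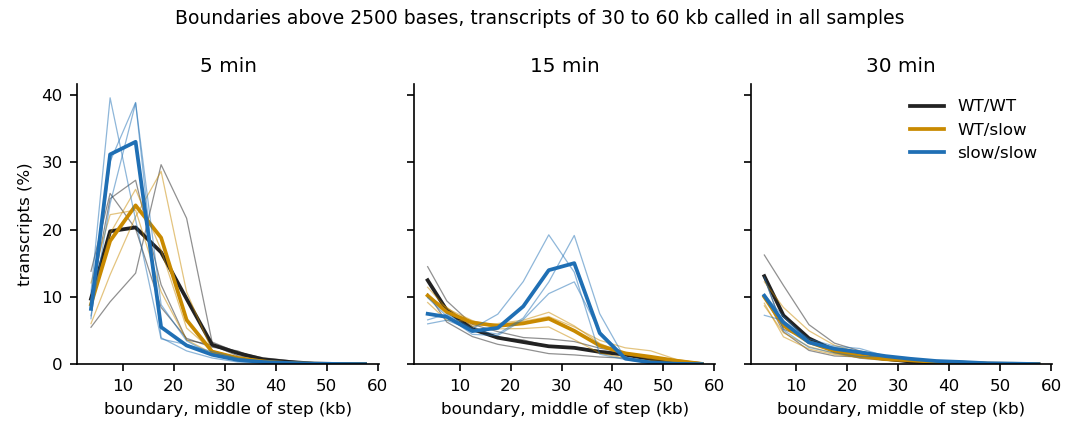
Members (%) against boundary (kb, middle of steps of 5 kb) for boundaries above 2500 bases at 5, 15 and 30 min; thin lines are samples and thick lines means of 3 replicates. At 15 min the slow/slow lines peak between 25 and 35 kb, where the WT/WT lines are low.

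Within the class, the share at 2500 bases at 15 min depended on transcript length. In transcripts of 30 to 35 kb it was 66.8 ± 5.70% in WT/WT, 62.2 ± 2.21% in WT/slow and 53.6 ± 10.5% in slow/slow cells. In transcripts of 55 to 60 kb it was 40.1 ± 14.6, 24.9 ± 5.73 and 15.5 ± 2.25% (SD, n = 3). The share was lower at each longer step of 5 kb in every genotype, and slow/slow means were the lowest at each step. The steepest part of the slow/slow curve ran from 53.6% at 30 to 35 kb over 39.3 ± 10.6% at 35 to 40 kb and 28.2 ± 7.95% at 40 to 45 kb to 20.4 ± 5.20% at 45 to 50 kb. The shortest step held 1403 members called in all samples and the longest 847.

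The means changed less with length at the other times. At 5 min the WT/WT share was 19.9 ± 5.53% at 30 to 35 kb and 15.3 ± 3.11% at 55 to 60 kb, and the slow/slow share 17.3 ± 1.45 and 16.1 ± 2.66%. The longest step was below the shortest in each of the 9 samples of 5 min, which was not tested. The 30 min shares were 70.5 ± 13.1 and 71.6 ± 8.86% in WT/WT, and 72.1 ± 2.10 and 72.3 ± 1.67% in slow/slow cells, with the longest step the higher in 4 of 9 samples. At 30 min the samples thus differed in direction. The median above 2500 bases at 15 min grew with length: from 6.9 ± 0.9 to 19.75 ± 3.69 kb in WT/WT, from 9.87 ± 0.874 to 23.8 ± 3.37 kb in WT/slow, and from 13.1 ± 4.00 to 28.3 ± 2.63 kb in slow/slow cells. Because no boundary was longer than its transcript, the highest value this median can take also grows with length. Across the 6741 members, which share the same samples and in part their genes, the number of replicates at 2500 bases at 15 min had a Spearman correlation with length of -0.238 in WT/WT, -0.325 in WT/slow and -0.398 in slow/slow cells.

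**Figure D3:**
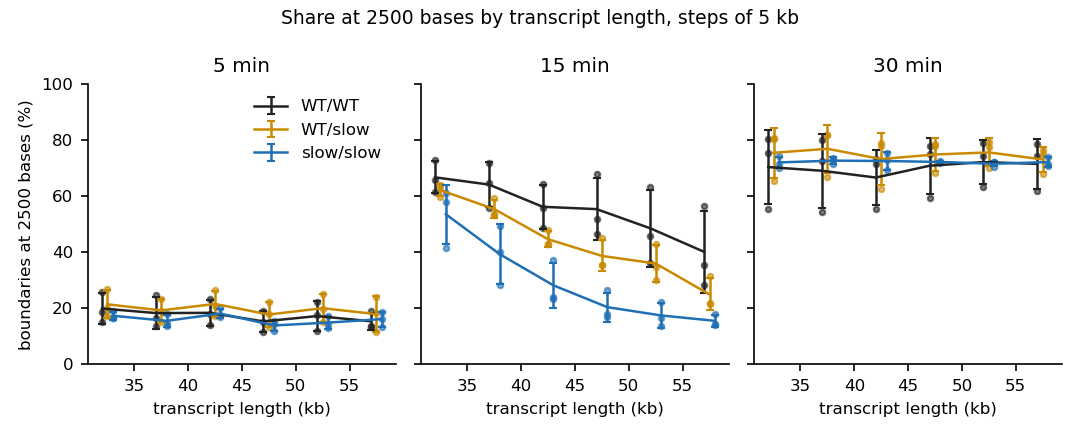
Share of boundaries at 2500 bases (%) against transcript length (kb, steps of 5 kb) at 5, 15 and 30 min; points are samples, lines join means and error bars are SD of 3 replicates. The lines slope down most at 15 min, with slow/slow the lowest.

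Neighbouring length classes placed these values. The class of 20 to 30 kb held 9307 transcripts of 5500 genes and that of 60 to 100 kb held 6032 of 2962 genes. At 15 min the share at 2500 bases, averaged over the 9 samples, was 67.8% at 20 to 30 kb, 44.5% at 30 to 60 kb and 24.6% at 60 to 100 kb. Within samples, the 30 to 60 kb share was lower than that of 20 to 30 kb in 9 of 9 (mean difference -23.3 points) and higher than that of 60 to 100 kb in 9 of 9 (19.9 points; exact sign-flip permutation p = 0.0039 for each, the smallest 9 samples allow). The median above 2500 bases was 16.2 kb, against 6.92 kb in the shorter and 25.1 kb in the longer class, with differences of 9.27 and -8.95 kb that held in 9 of 9 samples each (exact permutation p = 0.0039). No boundary was longer than its transcript, so the length that defines a class also caps this median. Its order between classes is in part set by that cap. At 5 min the differences were small: -1.38 points from the shorter class in share (8 of 9 samples, exact permutation p = 0.0078) and 0.489 kb in median (8 of 9, exact permutation p = 0.0078). Against the longer class they were -0.0624 points (exact permutation p = 0.906), and -0.344 kb (exact permutation p = 0.0703), or -0.45 kb without WT/slow 5 min replicate 3 (exact permutation p = 0.0156). The first of these was above 0 without WT/slow replicates 2 or 3 (0.0112 and 0.192 points) or slow/slow replicates 1 or 3 (0.0555 and 0.0754).

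In the share at 2500 bases and the median above 2500 bases, the genotypes differed more at 30 to 60 kb than on either side at 15 min. The median over all boundaries did not follow this order. At 30 to 60 kb its 15 min means were 2.57 kb in WT/WT, 3.4 kb in WT/slow and 13.6 kb in slow/slow cells. At 60 to 100 kb they were farther apart, at 10.4, 17.0 and 24.9 kb, and at 20 to 30 kb each was 2.5 kb. The slow/slow minus WT/WT difference in share at 2500 bases was -25.5 points at 30 to 60 kb, 0.773 at 20 to 30 kb and -15.5 at 60 to 100 kb. The last was -8.63 without WT/WT 15 min replicate 2. That at 20 to 30 kb has no settled direction: it was -1.50 without WT/WT 15 min replicate 3, and -0.253 and -0.163 without slow/slow 15 min replicates 1 and 2. Its size at 30 to 60 kb differed from the shorter class by -26.3 points and from the longer class by -9.99, and in both comparisons the samples did not overlap (exact permutation p = 0.1 for each, n = 3 a group). The median above 2500 bases behaved alike, with differences of 13.3, 1.85 and 4.75 kb in the order 30 to 60, 20 to 30 and 60 to 100 kb, the last 3.09 kb without WT/WT 15 min replicate 2. The difference at 30 to 60 kb exceeded those of the shorter and the longer class by 11.45 and 8.55 kb (exact permutation p = 0.1 for each, n = 3 a group). Transcripts of 20 to 30 kb cannot hold the slow/slow boundaries between 30 and 35 kb. The excess over the shorter class is therefore in part set by length. For WT/slow the share differed from WT/WT by -11.0, 3.43 and -5.68 points; against the shorter class the samples did not overlap (difference -14.4, exact permutation p = 0.1, n = 3 a group), against the longer class they did (-5.33, exact permutation p = 0.2, n = 3 a group). Without WT/WT 15 min replicate 2 the WT/slow difference at 60 to 100 kb turned to 1.19 points and that at 20 to 30 kb was 5.48, and without WT/WT 15 min replicate 3 they were -10.7 and 1.15. The WT/slow differences outside 30 to 60 kb thus hung on single libraries.

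**Figure D4:**
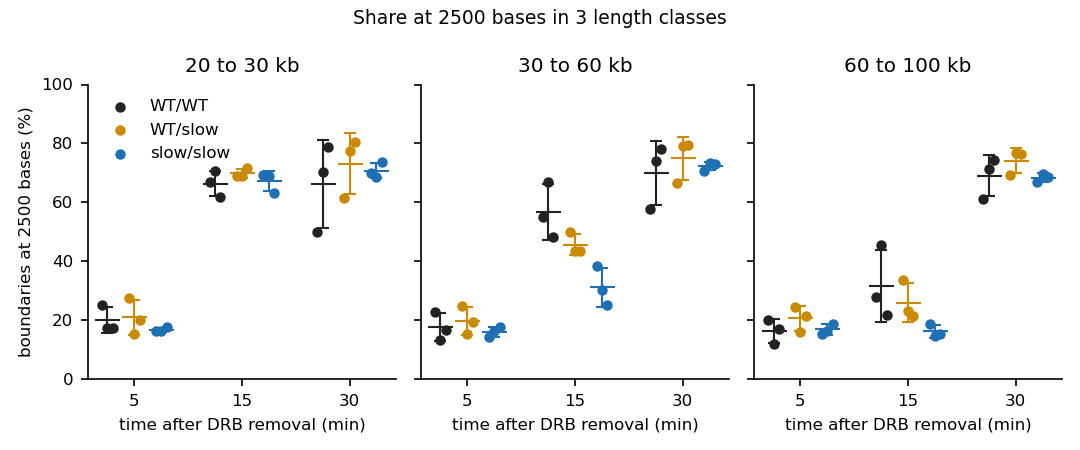
Share of boundaries at 2500 bases (%) against time after DRB removal (min) in transcripts of 20 to 30, 30 to 60 and 60 to 100 kb; points are samples, long bars means and error bars SD of 3 replicates. The genotypes are spread widest at 15 min in the 30 to 60 kb panel.

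Transcript by transcript, members were counted that stood at 2500 bases in every WT/WT replicate at 15 min and above it in every slow/slow replicate. Of 8660 members with the 6 boundaries, 776 or 8.96% did so, against 3.67% of the 41369 such transcripts of any length. The opposite pattern held for 91 members, 1.05%, against 1.93% of all. For WT/slow the counts were 291 of 9179 members (3.17%, against 1.99% of 43246) and, for the opposite, 136 (1.48%, against 1.86%). By these counts the slow/slow pattern was commoner, and its opposite rarer, among members than among all transcripts; whether the shares differ was not tested.

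The boundaries were also fitted for all transcripts with limma, a linear model that pools the variance over transcripts, and a difference was called at an adjusted p under 0.05. At 15 min slow/slow boundaries were higher than WT/WT in 1139 of 8062 members tested, from 676 genes, or 14.1% against 6.93% of all 27424 transcripts tested. They were lower in 89 members of 75 genes, 1.1% against 1.82% of all. The median difference was 5.83 kb over members and 0.267 kb over all transcripts. Without slow/slow 15 min replicate 1 the count of higher members was 1819, and without WT/WT 15 min replicate 2 that of lower members was 136. Members with a higher boundary in slow/slow cells thus outnumbered those with a lower one whichever of these libraries was used.

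In progress from 5 to 15 min, slow/slow was higher in 900 members of 535 genes, 11.2% against 5.06% of all transcripts tested, and 1509 members without slow/slow 15 min replicate 1. It was lower in 25 members of 22 genes, 0.31% against 0.66% of all; this count was 39 without WT/WT 5 min replicate 2 and 40, 45 and 46 without WT/WT 15 min replicates 1, 2 and 3. The median difference in progress was 7.6 kb over members and 2.0 kb over all transcripts. WT/slow differed from WT/WT in far fewer: progress was higher in 59 of 8671 members, 0.68% against 0.384% of 29681 transcripts, and lower in 9, 0.104% against 0.111%. The 59 became 33 without WT/WT 15 min replicate 2, 36 without WT/slow 5 min replicate 3 and 139 without WT/slow 15 min replicate 1. The 9 became 30 without WT/WT 5 min replicate 2, 5 and 14 without WT/WT 15 min replicates 1 and 2, and 23, 14 and 22 without WT/slow 5 min replicates 1, 2 and 3. At 15 min WT/slow was higher in 195 members, 2.25% against 1.41% of all transcripts tested, and lower in 30, 0.346% against 0.499%. The 195 became 127 without WT/WT 15 min replicate 2 and 414 without WT/slow 15 min replicate 1, and the 30 became 66 without WT/WT 15 min replicate 2 and 18 without WT/slow 5 min replicates 2 or 3. More WT/slow members were thus called at 15 min than in progress. Median WT/slow progress differed by 1.93 kb over members and 0.567 kb over all transcripts.

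At 5 min few members passed. Slow/slow was higher in 5 of 8062 members, 0.062% against 0.27% of all transcripts tested, and lower in 20, 0.248% against 0.281%. These counts rested on single libraries. The 5 became 8, 14 and 8 without WT/WT 5 min replicates 1, 2 and 3, 22, 14 and 25 without slow/slow 5 min replicates 1, 2 and 3, and 11 and 9 without slow/slow 15 min replicates 1 and 3. The 20 became 124, 37 and 105 without WT/WT 5 min replicates 1, 2 and 3, and 34 and 13 without slow/slow 5 min replicates 1 and 2. The 5 higher members were transcripts of Lrp1, Mroh4, Ston1, Tmem241 and Tmod3, named after their values were seen. Tmem241 (ENSMUST00000092075) stood at 26.4 kb in all 6 slow/slow samples of 5 and 15 min, while at 5 min its WT/WT boundaries were 3.7, 4.5 and 2.5 kb and its WT/slow boundaries 11.0, 25.3 and 20.8 kb (difference 22.8 kb, limma adjusted p = 0.00108). The median difference at 5 min was -1.73 kb over members and -1.13 kb over all transcripts.

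With the boundaries at 2500 bases left out, 2624 members of 10743 transcripts could be tested, and the direction at 15 min held. Slow/slow was higher in 341 members, 13% against 5.76% of all, and lower in 65, 2.48% against 5.57%. Progress was higher in 174, 6.63% against 2.52%, and lower in 5, 0.191% against 0.586%. The 5 were transcripts of Patj, Mrps6, Cpm, Tex15 and Zfp286, named after their values were seen. In Mrps6, a mitochondrial ribosomal protein gene (ENSMUST00000047429), the 15 min boundary was 48.5, 51.3 and 50.5 kb in WT/WT, 49.4 and 43.8 kb in the WT/slow replicates with a boundary, and 31.3, 33.9 and 22.3 kb in slow/slow samples. Slow/slow was the lowest without overlap. The median 15 min difference over these members was 3.56 kb, against -0.233 kb over all transcripts tested this way, and that in progress 5.78 against 1.65 kb.

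Members whose 18 boundaries at 5 and 15 min were all above 2500 bases give a view without that value. There were 286 among the 7562 with all 18, from 201 genes. All slow/slow replicates were above all WT/WT replicates at 15 min in 58 of the 286, 20.3% against 7.27% of the 1679 such transcripts of any length, and below them in 30, 10.5% against 19.2%. With 1 transcript per gene, 160 remained of 3786, of which slow/slow was lower in 16, higher in 20 and overlapping in 124. Among the 87 genes with a WT/WT mean of at least 20 kb at 15 min, slow/slow was lower in 15 and higher in 0. Choosing genes by a high WT/WT value by itself favours a lower slow/slow value, so the 15 and 0 describe that choice and were not tested.

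Several measured features went along with the calls. The 1139 members higher at 15 min had a median length of 46.1 kb, 12 exons and 42.4% GC, and the 8062 tested had 42.3 kb, 10 exons and 43.9% GC. The 89 lower members had a median length of 50.8 kb, 8 exons and 42.9% GC. Across tested members, which share samples and in part genes, the 15 min difference had a Spearman correlation of 0.145 with length and -0.149 with GC content (n = 8062), 0.136 with the number of exons (n = 8037) and 0.0148 with the length of the first intron (n = 8035). Each is weak and is given as a description. Members were split by GC content into 4 groups of equal size. In the lowest the share at 2500 bases at 15 min was 59.5 ± 10.6% in WT/WT and 29.2 ± 9.12% in slow/slow cells, and in the highest 53.7 ± 7.23 and 33.5 ± 3.17%. The slow/slow share was thus below the WT/WT share at both ends of GC content.

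Transcript types differed in how often they were called. Of 7834 protein coding members 59.6% had a boundary in all 27 samples, of 570 lincRNA members 27.02%, or 154, and of 293 antisense members 36.5%. At 15 min the protein coding share at 2500 bases was 58.1 ± 10.4% in WT/WT, 45.8 ± 3.81% in WT/slow and 30.5 ± 7.05% in slow/slow cells. For lincRNA it was 45.0 ± 9.19, 59.3 ± 4.17 and 50.9 ± 3.20%, so the slow/slow mean was not below that of WT/WT. The higher count at 15 min was 845 of 5551 protein coding (15.2%), 5 of 190 lincRNA (2.63%) and 8 of 144 antisense members tested (5.56%), beside 14.1% of all members and 6.93% of all transcripts tested. Whether the types differ was not tested.

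Fronts were mostly intronic. Of the boundaries above 2500 bases at 15 min, 2.87 ± 0.421% lay in exons in WT/WT, 3.35 ± 0.442% in WT/slow and 4.17 ± 0.697% in slow/slow cells, while exons made up 6.08% of the members' sequence past 2500 bases. Replicates of a group ranked the members only loosely alike. The Spearman correlation between replicates over the 6741 members ran from 0.227 to 0.586, and at most 71.1% of members had an identical boundary in a pair of replicates, at 30 min in WT/slow cells.

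Single genes show both directions. The genes named from here on were chosen by fixed rules on their values, so a gene's own direction is a description of that choice. The first ones described had a 15 min boundary deep in the gene in WT/WT cells and a lower one in slow/slow cells. Scai (ENSMUST00000142872, 57.75 kb) had boundaries of 42.4, 49.7 and 43.7 kb in WT/WT, 31.0, 34.7 and 36.8 in WT/slow and 33.1, 28.9 and 27.6 kb in slow/slow samples at 15 min. WT/WT was the highest without overlap. At 5 min its boundaries were 16.8, 17.3 and 12 kb in WT/WT, 5.5, 13.4 and 9.1 in WT/slow and 11.4, 8.6 and 5.0 kb in slow/slow samples. The 15 min means were 45.3 ± 3.89, 34.2 ± 2.94 and 29.9 ± 2.87 kb (SD, n = 3), and the slow/slow difference of -15.4 kb was called (limma adjusted p = 0.00451), though not on the log2 scale (-0.60, limma adjusted p = 0.292).

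Taf2 (ENSMUST00000041733, 57.0 kb) kept its WT/WT front in WT/slow cells. Its 15 min boundaries were 44.2, 50.5 and 41.5 kb in WT/WT, 44.7, 50.2 and 47.6 in WT/slow and 26.8, 31.6 and 26.3 kb in slow/slow samples. WT/WT and WT/slow overlapped and slow/slow lay below both. The slow/slow difference was -17.2 kb (limma adjusted p = 0.0083; on the log2 scale -0.69, limma adjusted p = 0.214). By 30 min each of the 9 Taf2 boundaries was 2.5 kb. Patj, a scaffold protein of cell junctions (ENSMUST00000107030, 58.8 kb), had boundaries of 41.6, 39.5 and 45.8 kb in WT/WT, 28.5, 52.9 and 43.3 in WT/slow and 27.2, 28.9 and 18.6 kb in slow/slow samples. Slow/slow was again the lower without overlap with WT/WT (-17.4 kb, limma adjusted p = 0.00551; on the log2 scale limma adjusted p = 0.162).

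A230072E10Rik (ENSMUST00000175942, 52.9 kb) had 15 min boundaries of 29.6, 34.0 and 41.4 kb in WT/WT, 12, 28.1 and 25.3 in WT/slow and 12.5, 14.6 and 18.3 kb in slow/slow samples. Both genotypes with the R749H allele were below WT/WT, and the slow/slow difference was -19.9 kb (limma adjusted p = 0.00298). Grb10, an imprinted adaptor of insulin and growth factor receptor signalling (ENSMUST00000143915, 59.1 kb), stood at 3.1, 2.5 and 4.2 kb in WT/WT, at 3.7, 6.5 and 2.5 in WT/slow and at 2.5 kb in each slow/slow sample at 5 min. At 15 min its boundaries were 31.0, 39.7 and 32.9 kb in WT/WT, 30.1, 3.1 and 33.6 in WT/slow and 19.2, 16 and 11.2 kb in slow/slow samples. The slow/slow samples were all below the WT/WT samples, and 1 WT/slow sample was below them all. The slow/slow difference was -19.1 kb (limma adjusted p = 0.000983).

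Igf2bp2, which encodes a protein that binds mRNA (ENSMUST00000151087, 53.3 kb), was above 2500 bases at 15 min in WT/WT cells alone. The boundaries were 19.8, 25.9 and 29.0 kb in WT/WT samples and 2.5 kb in each of the 6 WT/slow and slow/slow samples. The difference was -22.4 kb for slow/slow (limma adjusted p = 0.000196) and for WT/slow (limma adjusted p = 0.00101). Oma1, a mitochondrial protease (ENSMUST00000133178, 43.0 kb), had boundaries of 29.1, 37.4 and 24.6 kb in WT/WT, 4.6, 34.6 and 27 in WT/slow and 11.3, 12 and 7.9 kb in slow/slow samples. Slow/slow was below WT/WT without overlap (-19.97 kb, limma adjusted p = 0.0044; on the log2 scale limma adjusted p = 0.153).

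The converse pattern, at or near 2500 bases in WT/WT at 15 min and far into the gene in slow/slow cells, was seen in Sucla2, Glce, Pik3c2a and Nubpl. Sucla2, a subunit of succinyl-CoA synthetase (ENSMUST00000160507, 43.5 kb), stood at 32.9, 33.8 and 12.8 kb in WT/WT and at 12.6, 11.0 and 10.2 kb in slow/slow samples at 5 min. By 15 min it was at 2.5 kb in each WT/WT sample, at 2.5, 2.7 and 2.7 kb in WT/slow and at 33.9, 35.8 and 31.1 kb in slow/slow samples. WT/WT thus held the larger boundaries at 5 min and slow/slow at 15 min (15 min difference 31.1 kb, limma adjusted p = 0.00263; progress 46.3 kb, limma adjusted p = 0.00348). Glce, an epimerase of heparan sulfate synthesis (ENSMUST00000185873, 52.2 kb), behaved alike, with 34.8, 28.0 and 19.1 kb in WT/WT and 15.3, 11.6 and 9.8 kb in slow/slow samples at 5 min. At 15 min it was at 2.5 kb in each WT/WT sample, at 2.5, 17.2 and 2.5 kb in WT/slow and at 35.3, 36.5 and 34.0 kb in slow/slow samples (difference 32.8 kb, limma adjusted p = 0.000297).

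Pik3c2a, a class II phosphoinositide 3-kinase (ENSMUST00000205378, 55.4 kb), stood at 32.6, 31.4 and 34.1 kb in WT/WT and 20.5, 20.7 and 20.1 kb in slow/slow samples at 5 min. At 15 min the boundaries were 2.5, 2.5 and 9.5 kb in WT/WT, 8.3, 22.6 and 27.9 in WT/slow and 38.4, 46.4 and 41.6 kb in slow/slow samples. Slow/slow was the highest without overlap (37.3 kb, limma adjusted p = 3.17e-05; progress 49.6 kb, limma adjusted p = 0.000139). Nubpl, needed for the assembly of respiratory complex I (ENSMUST00000159708, 47.0 kb), was at 3.4, 2.5 and 2.5 kb in WT/WT, at 5.5, 2.5 and 3.2 in WT/slow and at 42.0, 40.6 and 38.9 kb in slow/slow samples at 15 min. Its slow/slow difference was 37.7 kb (limma adjusted p = 0.00275). At 30 min all of these genes were at 2.5 kb in each slow/slow sample.

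Slc43a2 (ENSMUST00000042561, 45.9 kb) was above 2500 bases in every sample of 5 and 15 min. At 15 min its boundaries were 7.6, 7.6 and 12.4 kb in WT/WT, 14.2, 13.6 and 13.9 in WT/slow and 27.8, 30.5 and 30.2 kb in slow/slow samples. The genotypes did not overlap (slow/slow difference 20.3 kb, limma adjusted p = 0.000221). Evc2, a ciliary protein of hedgehog signalling (ENSMUST00000101258, 49.2 kb), was at 3.3, 6.5 and 7.3 kb in WT/WT, 28.4, 23.5 and 25.1 in WT/slow and 28.6, 23.6 and 22.9 kb in slow/slow samples. There WT/slow and slow/slow overlapped, both above WT/WT, by 19.97 kb (limma adjusted p = 0.000889) and 19.3 kb (limma adjusted p = 0.000226).

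Lrp1, an endocytic receptor (ENSMUST00000125480, 33.5 kb), differed at 5 min and not at 15 min. At 5 min it was at 2.5, 2.5 and 3.5 kb in WT/WT, 24.2, 22.1 and 23.0 in WT/slow and 26.6, 18.9 and 22 kb in slow/slow samples, and at 15 min at 2.5 kb in all 9. Cells with the R749H allele had the larger boundary at 5 min (slow/slow difference 19.7 kb, limma adjusted p = 0.00103), and progress was -19.7 kb relative to WT/WT in slow/slow (limma adjusted p = 0.00117) and -20.3 kb in WT/slow (limma adjusted p = 0.000141).

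**Figure D5:**
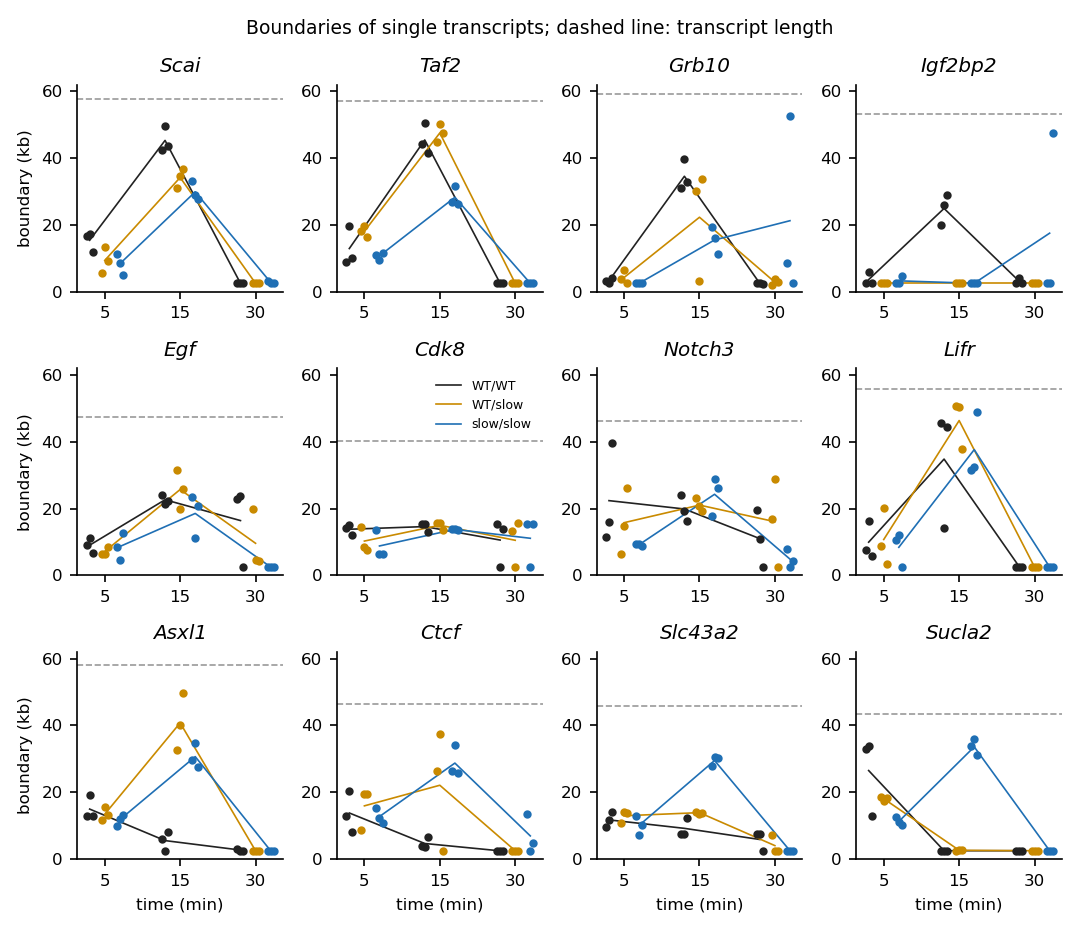
Boundaries (kb) of 12 transcripts against time after DRB removal (min); points are samples, lines join means of 3 replicates and the dashed line is the transcript's length. At 15 min slow/slow means are below WT/WT means in Scai, Taf2, Grb10 and Igf2bp2 and above them in Asxl1, Ctcf, Slc43a2 and Sucla2.

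Next come members above 2500 bases in all 18 samples that had no called difference in slow/slow cells. Egf, a growth factor gene (ENSMUST00000197079), was at 24.2, 21.4 and 22.3 kb in WT/WT, 31.5, 19.9 and 25.7 in WT/slow and 23.5, 11.3 and 20.8 kb in slow/slow samples at 15 min. B4galt5, a galactosyltransferase (ENSMUST00000109221), was at 35.9, 21.3 and 28.8 kb in WT/WT, 30.1, 37.5 and 38.8 in WT/slow and 28.2, 30.6 and 28.8 kb in slow/slow samples. In both genes the slow/slow values overlapped those of WT/WT. Mroh1 (ENSMUST00000161305) was at 38.5, 43.7 and 39.9 kb in WT/WT, 46.7, 47.3 and 40.9 in WT/slow and 33.4, 32.2 and 31.7 kb in slow/slow samples, with slow/slow below both others, but did not pass in limma (-8.27 kb, adjusted p = 0.208).

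Gene lists by function were counted in the same fit, in which 1139 of all 8062 members tested were higher (14.1%) and 89 lower (1.1%). At an unadjusted p under 0.05, 2325 of the 8062 were higher and 263 lower. Chromatin regulators had 138 members tested, of which 29 in 18 genes were higher at 15 min in slow/slow cells, or 21.01%, and 0 lower (limma; 53 higher and 1 lower at an unadjusted p under 0.05). Their median difference was 8.58 kb. Asxl1, a partner of Polycomb proteins (ENSMUST00000109790), was at 6.1, 2.5 and 8.0 kb in WT/WT, 32.6, 40.1 and 49.6 in WT/slow and 29.6, 34.7 and 27.7 kb in slow/slow samples. Both genotypes with R749H were above WT/WT, by 35.2 kb in WT/slow (limma adjusted p = 0.00239) and 25.1 kb in slow/slow cells (limma adjusted p = 0.000221). Ctcf, which organizes chromatin loops (ENSMUST00000005841), was at 3.8, 3.5 and 6.7 kb in WT/WT, 26.5, 37.3 and 2.5 in WT/slow and 26.3, 34.2 and 25.7 kb in slow/slow samples. Slow/slow was above WT/WT (24.1 kb, limma adjusted p = 0.00134), and WT/slow was split. Kmt2d, a histone methyltransferase (ENSMUST00000023741), was at 5.1, 16.7 and 3.7 kb in WT/WT, 26.7, 19.7 and 18.1 in WT/slow and 17.5, 21.7 and 22 kb in slow/slow samples, a difference that this transcript did not pass (11.9 kb, limma adjusted p = 0.0615). Another Kmt2d transcript was among the 29 called higher.

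The machinery of polymerase elongation had 62 members tested, 15 of them higher in 8 genes (24.2%, median 15.5 kb) and 0 lower (limma; 29 higher and 1 lower at an unadjusted p under 0.05). Cdk8, the kinase of the Mediator complex (ENSMUST00000159467), kept nearly the same front in all genotypes. Its 15 min boundaries were 15.4, 15.4 and 13.0 kb in WT/WT, 15.7, 15.7 and 13.6 in WT/slow and 13.8, 13.8 and 13.7 kb in slow/slow samples. Ell, an elongation factor (ENSMUST00000093454), was at 2.5, 2.5 and 43.7 kb in WT/WT, 2.5, 32.1 and 40.5 in WT/slow and 34.1, 32.1 and 29.8 kb in slow/slow samples. In Ell a single WT/WT replicate lay above all slow/slow values.

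RNA processing factors had 93 members tested, of which 11 in 6 genes were higher (11.8%, median 9.2 kb) and 0 lower (limma; 29 higher and 0 lower at an unadjusted p under 0.05). Fubp3, a single-stranded nucleic acid binding protein (ENSMUST00000113482), was at 4.6, 3.1 and 2.5 kb in WT/WT, 26.5, 11.0 and 31.6 in WT/slow and 21.4, 32.4 and 22.6 kb in slow/slow samples. Slow/slow was above WT/WT (22.1 kb, limma adjusted p = 0.00255). Eftud2, a GTPase of the spliceosome (ENSMUST00000107060), was at 4.7, 3.2 and 21.6 kb in WT/WT, 7.7, 37.2 and 31.1 in WT/slow and 2.5, 33.1 and 30.7 kb in slow/slow samples, with overlap.

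Genes of DNA replication and repair had 79 members tested, 9 of them higher in 7 genes (11.4%, median 7.73 kb) and 0 lower (limma; 25 higher and 1 lower at an unadjusted p under 0.05). Prkdc, the catalytic subunit of DNA-dependent protein kinase (ENSMUST00000182134), was at 29.9, 31.9 and 21.3 kb in WT/WT, 3.0, 31.2 and 38.5 in WT/slow and 13.0, 27.7 and 26.5 kb in slow/slow samples. Brca2, a recombination factor (ENSMUST00000044620), was at 16.9, 2.5 and 25.8 kb in WT/WT, 2.5, 32.7 and 39.1 in WT/slow and 15.5, 19.4 and 19.4 kb in slow/slow samples. The genotypes overlapped in both genes.

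Genes of pluripotency and the LIF pathway had 26 members tested, with 2 higher (7.69%, median 18.3 kb) and 0 lower (limma; 16 higher and 1 lower at an unadjusted p under 0.05). The 2 were named after their values were seen. Esrrb, a nuclear receptor of the pluripotency network (ENSMUST00000167891), was at 2.5, 2.5 and 3.2 kb in WT/WT, 7.2, 19.3 and 2.5 in WT/slow and 17.3, 19.3 and 21.9 kb in slow/slow samples. Il6st, the signalling subunit of the LIF receptor (ENSMUST00000070731), was at 3.5, 3.4 and 2.5 kb in WT/WT, 14.2, 16.7 and 3.0 in WT/slow and 20.4, 25.5 and 18.8 kb in slow/slow samples. Slow/slow was above WT/WT in both, by 16.8 kb (limma adjusted p = 0.00819) and 18.4 kb (limma adjusted p = 0.000123). Lifr, the ligand-binding partner of Il6st (ENSMUST00000164529), was at 45.7, 14.2 and 44.5 kb in WT/WT, 50.7, 50.4 and 37.9 in WT/slow and 31.6, 32.5 and 48.8 kb in slow/slow samples. Stat3, the transcription factor below these receptors (ENSMUST00000103114), was at 2.5, 2.5 and 36.2 kb in WT/WT, 35.4, 40.6 and 46.0 in WT/slow and 32.0, 34.9 and 27.9 kb in slow/slow samples. The genotypes overlapped in Lifr and Stat3.

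Notch, Wnt, FGF and BMP signalling genes had 45 members tested, 9 of them higher in 7 genes (median 3.47 kb) and 1 lower, of Smad4, named after its values were seen (limma; 11 higher and 2 lower at an unadjusted p under 0.05). This Smad4 transcript (ENSMUST00000114939), of the common mediator of TGF-beta and BMP signals, was at 22.6, 33.7 and 24.1 kb in WT/WT, 26.9, 32.1 and 27.5 in WT/slow and 13.6, 10.5 and 6.2 kb in slow/slow samples. Slow/slow was below WT/WT (-16.7 kb, limma adjusted p = 0.0343). The call was lost without WT/WT 5 min replicates 1, 2 and 3 (limma adjusted p = 0.0563, 0.0575 and 0.0572), WT/WT 15 min replicate 2 (0.0941), and slow/slow 15 min replicates 2 and 3 (0.0877 and 0.118). Notch3, a receptor (ENSMUST00000087723), was at 24.0, 19.2 and 16.4 kb in WT/WT, 23.1, 20.8 and 19.2 in WT/slow and 17.8, 28.9 and 26.1 kb in slow/slow samples, with overlap. Notch1 (ENSMUST00000028288) was at 35.5, 2.5 and 32.7 kb in WT/WT, 30.3, 30.2 and 30.1 in WT/slow and 29.6, 31.1 and 25.6 kb in slow/slow samples, and its WT/WT samples lay on both sides of the others. Apc, a scaffold that restrains Wnt signalling (ENSMUST00000066133), was at 19.5, 21.6 and 18.6 kb in WT/WT, 15.2, 26.5 and 20.9 in WT/slow and 3.4, 7.5 and 16.5 kb in slow/slow samples. Slow/slow values were below WT/WT there without overlap, but this transcript did not pass (-10.8 kb, limma adjusted p = 0.0578). Another Apc transcript was among the 9 called higher, so the gene has no single direction.

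Synaptic and axon genes had 58 members tested, 9 of them higher (15.5%, median 2.98 kb), all of Dync1i2 and Kif1b, which serve transport along microtubules, and 0 lower (limma; 11 higher and 0 lower at an unadjusted p under 0.05). Plxna1, a semaphorin receptor (ENSMUST00000163139), was at 26.8, 2.5 and 38.7 kb in WT/WT, 28.1, 29.8 and 2.5 in WT/slow and 31.0, 33.1 and 30.3 kb in slow/slow samples. The genotypes overlapped. Fibroblast and differentiated cell markers had 11 members tested, 0 higher and 0 lower (limma; 2 higher and 0 lower at an unadjusted p under 0.05; median 5.9 kb). Pdgfrb, a growth factor receptor of mesenchymal cells (ENSMUST00000025522), was at 16, 2.5 and 14.1 kb in WT/WT, 2.5, 2.5 and 19.8 in WT/slow and 5.6, 6.1 and 18.3 kb in slow/slow samples. Beside all these lists stand the 14.1% higher and 1.1% lower over all members tested, and no list was tested as a set.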

How the data were processed

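The deposited values are distances in bases: reads were mapped by the authors to mm10 (Bowtie 2 2.2.9), who binned nascent RNA along the genome and took the end of the wave as the boundary of each transcript, against the average of the 0 min samples. Without read counts no depth or counting error can be given, and precision is the spread of 3 replicates. Shares at 2500 bases, shares by distance and medians over all boundaries used members with a boundary in all 27 samples. The median above 2500 bases used every member above that value in a sample. Groups were compared by two-sided exact permutation tests over samples. Limma 3.58.1 (R 4.3.3) fitted every transcript with all boundaries of the compared groups, adjusted over all transcripts tested. Genes were named by rule, 1 transcript each: the 5 largest limma differences in progress each way; among members above 2500 bases in 18 samples, the 5 largest non-overlapping 15 min differences each way and the 5 with the smallest spread; up to 3 of each list with most boundaries above 2500 bases; and Notch1, Grb10 and Agtpbp1, named by earlier results. Not every gene so named is reported here. The members and lists were chosen with earlier results of these data known. Alternatives were the mean over transcripts, percent of length, 1 transcript per gene, a replicate block, the log2 scale, 2500 bases left out, at least 2 of 3 replicates, and leaving out each library. Tables were made with Python 3.11.15, NumPy 2.4.6, pandas 2.3.3 and pysam 0.24.0, and figures with Matplotlib 3.10.9. Code was tested on simulated data. Samples at 0 min and without DRB have no boundaries and were left out.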

Additional observations from a re-analysis of the deposited data

Results flagged for a closer look

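The slow/slow minus WT/WT difference in the median boundary above 2500 bases differed between the 5 and 15 min time points, by 15.9 kb (exact permutation p = 0.025). The cause was not tested.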

How the results depend on the processing

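The 38 results were recomputed under 460 alternatives. Of these 378 kept their label, 56 moved, 16 reversed, 8 came past the threshold and 2 no longer passed. Among these results, those at 15 min on shares and medians kept their direction. The counts do not cover the genotype differences of the neighbouring classes or the share past 40 kb, some of which turned without single libraries. For the 21 named genes with 45 calls, 699 of 786 alternatives kept the call, 87 lost it and 0 reversed it. Causes of these changes were not tested, except where stated.

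With the mean over transcripts in place of the median, the 30 min differences were 0.398 kb for slow/slow and -0.084 kb for WT/slow, where the medians had been equal, and the slow/slow difference in progress was 10.2 kb (exact permutation p = 0.01). On the scale of percent of transcript length, the WT/slow difference at 5 min in the median above 2500 bases was 0.00032, reversed from a value near 0.

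With 1 transcript per gene, the slow/slow difference in progress of the median boundary was 13.1 kb (exact permutation p = 0.045), and the median above 2500 bases at 5 min was -0.383 kb relative to 60 to 100 kb (exact permutation p = 0.0195). Limma counts were smaller by construction, with fewer transcripts: at 5 min 2 higher and 8 lower, at 15 min 513 and 45, in slow/slow progress 410 and 13, and in WT/slow progress 26 and 4.

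With replicate number as a block, the slow/slow difference in progress above 2500 bases was 15.9 kb with an exact permutation p of 0.25, the smallest that 3 pairs allow. Limma then gave 10 lower members at 5 min, and 33 higher and 5 lower in WT/slow progress. The deviations of samples with the same number from their groups correlated from -0.00611 to 0.174 between slow/slow and WT/WT. Between WT/slow and WT/WT they correlated from 0.0636 to 0.375. For WT/slow these lay above 0.1 at 5 min (0.19 to 0.375) and 30 min (0.204 to 0.242) but not throughout at 15 min (0.0636 to 0.142), and every sample correlated best with its own number. For slow/slow not every sample did. The numbers thus went with shared deviations between WT/slow and WT/WT at 5 and 30 min, where leaving out 1 library also breaks a pair. With the block the WT/slow share differed by 2.18 points at 5 min and 5.05 at 30 min, and the WT/slow median above 2500 bases by 0.6 kb at 30 min (exact sign-flip permutation p = 0.25 each).

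On the log2 scale limma gave 11 higher and 40 lower members at 5 min and 92 higher in WT/slow progress. With 2500 bases left out it gave 1 higher and 0 lower at 5 min (42 and 148 at an unadjusted p under 0.05), 341 higher at 15 min, 174 higher and 5 lower in slow/slow progress, and 0 and 0 in WT/slow progress (187 and 41 unadjusted). That setting also tested fewer members, 2624 in place of 8062 for slow/slow and 2346 in place of 8671 for WT/slow, so the lost calls cannot be put down to the value of 2500 bases alone. With at least 2 of 3 boundaries per group it gave 17 higher and 61 lower at 5 min and 38 lower in slow/slow progress. An alternative chosen after seeing the data, testing only transcripts with a boundary other than 2500 bases, gave 5 lower in WT/slow progress.

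Leaving out each library in turn, the median boundary at 5 min differed from WT/WT by -3.75 to 0.75 kb in slow/slow and -2.38 to 2.12 kb in WT/slow, and the WT/slow median above 2500 bases by -1.67 to 2.08 kb. The share at 2500 bases differed in slow/slow by -3.66 to 1.00 points at 5 min and -3.75 to 6.46 at 30 min, and in WT/slow by -0.334 to 4.73 and -1.03 to 9.27. Differences in progress ran from 10.3 to 17.0 kb for slow/slow and -1.28 to 3.22 kb for WT/slow in the median boundary, and from 13.55 to 17.3 kb for slow/slow above 2500 bases. Relative to 60 to 100 kb at 5 min, the share differed by -0.425 to 0.192 points and the median above 2500 bases by -0.45 to -0.275 kb.

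The limma counts under the same omissions ran from 4 to 25 higher and 13 to 124 lower at 5 min, 1013 to 1819 and 62 to 136 at 15 min, 753 to 1509 and 26 to 46 in slow/slow progress, and 33 to 139 and 5 to 30 in WT/slow progress. Where an omission leaves 2 samples in a group, limma takes their spread to be like that of the other groups.

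Each group has 3 samples, so no exact comparison of shares or medians between genotypes at a single time can fall below p = 0.1. Genotype and cell line cannot be told apart. Whether 2500 bases is a wave end or a default is unknown, and the depth behind the boundaries is unknown. Many members share a gene or a start, so counts of members overstate the number of independent genes. The length steps, the neighbouring classes' genotype differences and the ranges of 20 to 40 kb and past 40 kb were chosen after seeing the data. So were the omissions of single libraries for the latter differences and ranges and for changes in share over time, which the counts of alternatives do not include.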
